A study of Mus musculus with 6 samples.

Results

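The genes described here are 10 immediate early genes, taken by symbol from the 54532 genes of the deposited count table: Fos, Fosb, Fosl2, Jun, Junb, Jund, Egr1, Ier2, Nr4a1 and Atf3. All 10 were found there, and all 10 passed the filter on low counts. RNA was sequenced from whole hearts of 6 mice aged 3 months on a C57BL/6 background, of which the study's text gives the sensitive ones as male. The 3 resistant hearts (α1r/rα2s/s, mice 368, 369 and 370) carried the natural rodent Na/K-ATPase α1, which binds cardiotonic steroids (CTS) weakly. The 3 sensitive hearts (α1s/sα2s/s, mice 379, 380 and 381) carried an engineered α1 with a high affinity for CTS. Both genotypes carried the CTS-sensitive α2, the α1 change was present in the whole animal rather than in 1 cell type, and no treatment is named for these mice.

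Immediate early genes are transcribed within minutes of a stimulus from factors already present in the cell, without new protein synthesis. Growth factors, stretch, calcium signals, stress and the handling of tissue all induce them, through MAP kinases, serum response factor (SRF) and CREB, and their mRNA is short-lived. Fos and Jun proteins pair through leucine zippers to form the transcription factor AP-1. Egr1 and Nr4a1 encode a zinc finger factor and an orphan nuclear receptor, Atf3 a stress-induced bZIP factor, and Ier2 a nuclear protein induced along with them.

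Start-site sequences were available from RefSeq (GRCm38.p6) for 8 of the 10 genes, as windows of 300 bases from 250 before to 50 after the start; Egr1 and Ier2 were not among them. The 4 of these 8 with the largest spread between hearts (Fos, Nr4a1, Junb and Fosb) and Jun, which varied little, are shown from 100 bases before the start site to 50 after it. Capitals mark TGACG, the core of the cAMP response element (CRE), read as CGTCA where it lies on the other strand, and the TATA box TATAAA. The stretches are chr12:85473790-85473939, plus strand, for Fos; chr7:19309996-19310145, minus strand, for Fosb; chr8:84978699-84978848, minus strand, for Junb; chr15:101266746-101266895, plus strand, for Nr4a1; and chr4:95052173-95052322, minus strand, for Jun.
Fos: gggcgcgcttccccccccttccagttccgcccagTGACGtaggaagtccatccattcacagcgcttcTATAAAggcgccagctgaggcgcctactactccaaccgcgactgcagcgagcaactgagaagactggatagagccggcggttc
Fosb: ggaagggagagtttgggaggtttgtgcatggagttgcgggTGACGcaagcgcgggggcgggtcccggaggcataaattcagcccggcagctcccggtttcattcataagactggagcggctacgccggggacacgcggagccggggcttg
Junb: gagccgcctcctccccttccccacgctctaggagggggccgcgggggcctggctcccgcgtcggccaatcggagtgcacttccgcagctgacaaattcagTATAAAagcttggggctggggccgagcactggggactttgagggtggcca
Nr4a1: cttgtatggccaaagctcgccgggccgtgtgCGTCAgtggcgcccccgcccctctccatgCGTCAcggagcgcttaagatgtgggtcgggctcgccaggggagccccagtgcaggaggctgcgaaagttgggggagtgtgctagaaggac
Jun: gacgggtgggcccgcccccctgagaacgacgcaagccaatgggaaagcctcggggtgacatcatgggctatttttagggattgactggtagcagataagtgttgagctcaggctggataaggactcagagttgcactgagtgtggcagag

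In the windows of 300 bases, the core TGACG occurred on either strand in 5 of the 8 genes (Atf3, Fos, Fosb, Junb and Nr4a1), and in 20.8% of all 32851 RefSeq windows. Fos held it at -129 and -66 and Nr4a1 at 4 positions, of which -69 and -40 lie within the stretch shown, counted from the start site to the left end of the match. TATAAA, on either strand, was found in Fos at -33 and in Junb at 1, and in 13.6% of all windows. The start site used for Junb lies 30 bases upstream of the gene start in the count table, so the position in Junb depends on the start taken. The windows of the 8 genes held no match to the full CRE (TGACGTCA, present in 1.79% of all windows) or the AP-1 site (TGANTCA, 7.81%). They also held no match to the EGR site (GCGTGGGCG, 0.612%) or the CArG box bound by SRF (1.63%). Each pattern was searched on both strands, within these windows of 300 bases only. Sites further upstream were not searched, nor were variants of the patterns, such as TGACATCA in the stretch of Jun shown. Egr1 and Ier2 had no window, so the absence of these sites from the genes as a whole was not tested. TGACG was searched after the sequences had been looked at, and it is contained in the full CRE. The start sites used for Nr4a1, Atf3, Jund and Fosl2 lie 12577, 34706, 1210 and 671 bases from the gene start in the count table, so other promoters of these genes were not searched.

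The libraries held 19309312 to 20470065 counts. Mitochondrially encoded genes took 23.4% to 24.4% of them in resistant hearts and 25.0% to 26.0% in sensitive hearts. Levels are given as counts, or as CPM (counts scaled to library size after TMM normalization, the usual CPM unit). Of the 14866 genes that passed the filter, 214 (1.44%) passed the threshold for a genotype difference, a BH-adjusted p of 0.05 by the quasi-likelihood method of edgeR. None of the 10 immediate early genes did, and none had an unadjusted p under 0.05 in edgeR, DESeq2 or limma voom. Over all 14866 genes tested, 2150 had an unadjusted p under 0.05 in edgeR, so a count of 0 among 10 genes says little. Groups without overlap between the genotypes were found for 20.0% of the genes tested, and for 0 of the 10. In whole-heart RNA, fewer cells of a type and less RNA per cell cannot be told apart.

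What varied was the level from heart to heart within each genotype, in the same way for most of the 10 genes. Egr1 had 1149, 393 and 207 counts in resistant hearts 368, 369 and 370, and 1039, 196 and 144 counts in sensitive hearts 379, 380 and 381. Fos had 425, 177 and 84 counts in the resistant hearts and 312, 111 and 77 in the sensitive hearts, in the same order of mice. Hearts 368 and 379 were thus high for both genes and the other 4 were lower, and the genotypes overlapped. Scaled to library size, the highest resistant heart exceeded the lowest 5.27-fold for Egr1 and 4.81-fold for Fos, and the highest sensitive heart exceeded the lowest 6.91-fold and 3.88-fold. For comparison, the median gene tested had a ratio of 1.21 between the highest and lowest resistant heart and 1.22 between the sensitive hearts.

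**Figure D1:**
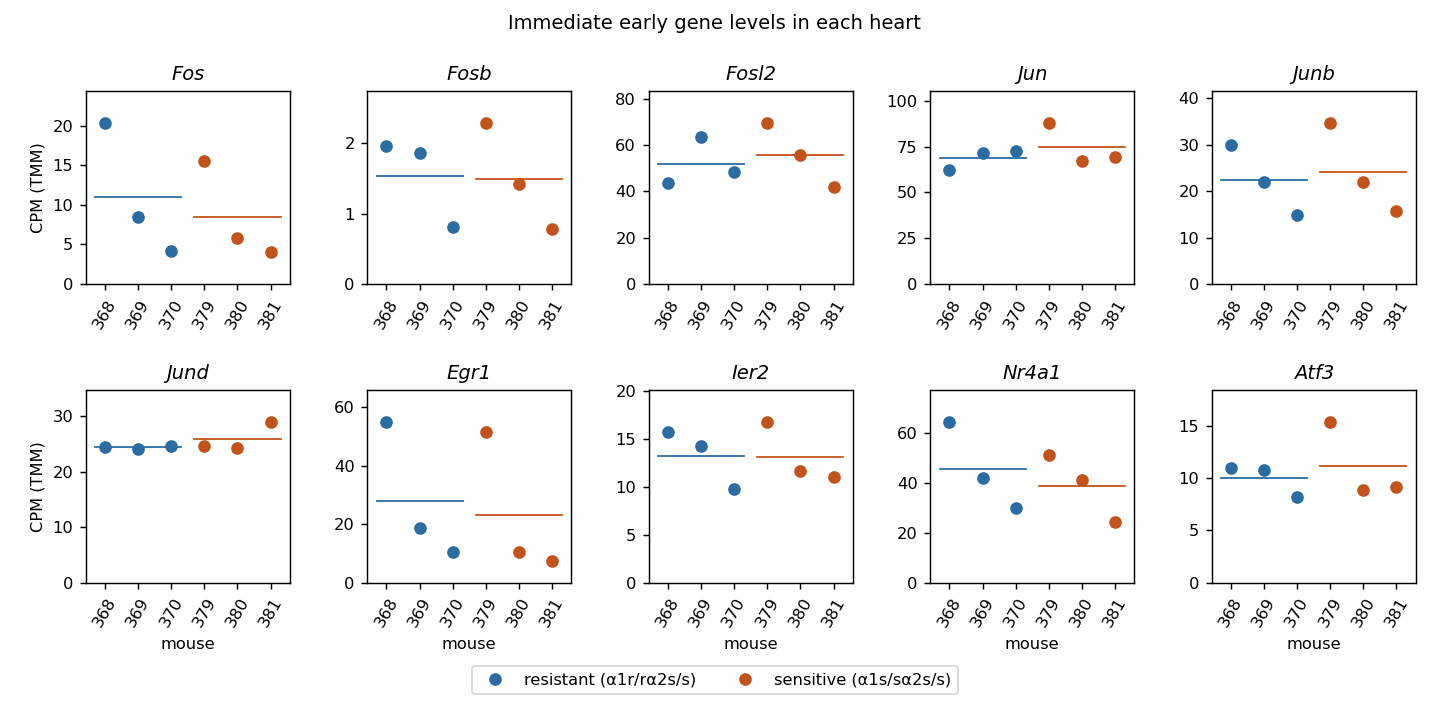
CPM of the 10 immediate early genes (vertical axes from 0) in each heart, named by mouse number, with a line at the mean of each genotype (n = 3). Hearts 368 and 379 are the highest of their genotype for Fos, Fosb, Junb, Egr1, Ier2, Nr4a1 and Atf3, while Jund lies between 24.1 and 28.9 CPM in the 6 hearts.

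Among the Fos family, Fos mRNA averaged 10.99 ± 8.33 CPM in resistant and 8.44 ± 6.17 CPM in sensitive hearts (SD, n = 3). The log2 fold change of sensitive over resistant hearts was -0.38 (SE = 0.47, BH-adjusted p = 0.765, edgeR), where SE is the standard error and BH the Benjamini-Hochberg adjustment over all genes tested. The 95% interval of the fold ran from 0.384 to 1.54. It rests on a variance that edgeR draws toward that of other genes. The spread of Fos between hearts of 1 genotype was above that of 99.2% of the genes tested, so this interval may be too narrow. Fosb, a close relative whose protein can also pair with Jun proteins, was the least abundant of the 10, with 41, 39 and 16 counts in resistant and 46, 27 and 15 counts in sensitive hearts. Its highest and lowest hearts were the same mice as for Fos, and its fold was 0.969 with an interval from 0.506 to 1.86. Fosl2, which encodes Fra-2, did not follow this order in resistant hearts. It had 911, 1334 and 966 counts there, with 368 the lowest, and 1399, 1061 and 811 counts in sensitive hearts, with 379 the highest. Its fold was 1.07 with an interval from 0.854 to 1.35.

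The Jun family split into a variable member and a pair of steady ones. Junb, whose protein often dampens the activity of c-Jun, had 629, 462 and 296 counts in resistant and 697, 417 and 303 counts in sensitive hearts. Hearts 368 and 379 were again the highest and hearts 370 and 381 the lowest, with ratios of 2.02 and 2.20 between the highest and lowest heart. The mean was 22.3 ± 7.58 CPM in resistant and 24.1 ± 9.63 CPM in sensitive hearts (SD, n = 3), with a log2 fold change of 0.11 (SE = 0.25, BH-adjusted p = 0.882, edgeR). Jun, which encodes c-Jun, had 1299, 1497 and 1440 counts in resistant and 1766, 1279 and 1333 counts in sensitive hearts. Heart 368 was the lowest resistant heart for Jun and heart 379 the highest sensitive one. Jund, a member expressed at a high level in unstimulated cells of many tissues, ran from 461 to 558 counts and was nearly flat. Its fold of 1.06 had an interval from 0.921 to 1.23, and that of Jun was 1.09 with an interval from 0.939 to 1.26. Junb overlaps Prdx2 on the opposite strand, which had 4448 to 4980 counts, and Jun overlaps Junos, an antisense gene with 14 to 36 counts. Jund, from base 70698949 to 70700616 of its chromosome, contains the antisense gene Gm11175, from 70699162 to 70700080, with 0 counts. Atf3 overlaps Gm24748 on the opposite strand, also with 0 counts. The setting for strand in the counting is not given in the sources used here, so reads in these overlaps cannot be assigned with certainty.

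Egr1, which encodes an early zinc finger regulator of growth and matrix genes, averaged 28.0 ± 23.6 CPM in resistant and 23.1 ± 24.7 CPM in sensitive hearts (SD, n = 3). The spread within each genotype was about as large as the mean, and the log2 fold change was -0.27 (SE = 0.59, BH-adjusted p = 0.878, edgeR), with an interval of the fold from 0.348 to 1.97. Leaving out heart 379 moved it to -1.66, below the lower end of its interval at -1.52, and leaving out heart 368 moved it to 0.67. The sign also turned without heart 380 (0.08) or heart 381 (0.15). Nr4a1, which encodes the nuclear receptor Nur77, had 1352, 880 and 601 counts in resistant and 1033, 782 and 471 counts in sensitive hearts. Its order among the hearts of each genotype was that of Egr1, and its fold of 0.854 had an interval from 0.598 to 1.22. Ier2 had 329, 299 and 194 counts in resistant and 337, 221 and 213 counts in sensitive hearts, with a fold of 0.992 and an interval from 0.755 to 1.30. Atf3 had 230, 226 and 164 counts in resistant and 310, 168 and 177 counts in sensitive hearts, so that heart 379 stood above the other 5. Its fold was 1.11 with an interval from 0.831 to 1.49.

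**Figure D2:**
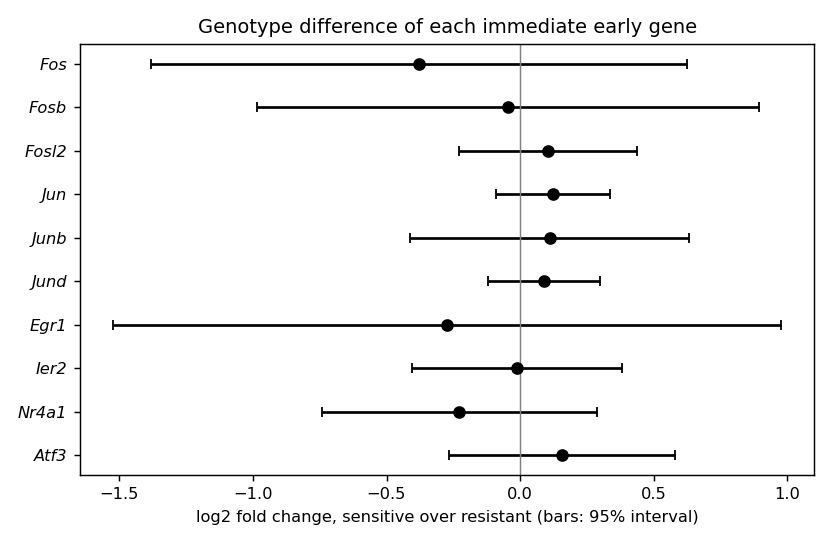
Log2 fold change of sensitive over resistant hearts for each of the 10 genes (points) with its 95% interval from edgeR's quasi-likelihood fit (bars; n = 3 hearts per genotype). Every interval crosses 0, and the interval of Egr1, from -1.52 to 0.98, is the widest of the 10.

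Over the 10 genes, 5 were higher and 5 lower in sensitive hearts. Their log2 fold changes ran from -0.38 for Fos to 0.16 for Atf3 with a median of 0.04, and the median over all genes tested was -0.01. The smallest adjusted p was that of Jun, at 0.62 from edgeR. Exact permutation tests over the hearts gave two-sided p from 0.4 for Jund to 1 for Ier2, where the smallest p that 3 hearts against 3 allow is 0.1. The direction of 9 of the 10 genes turned in at least 1 of the 6 fits that left out a heart, with Jund as the exception. Without heart 379 the median of the 10 was -0.23, and without heart 381 it was 0.16.

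The spread between hearts of 1 genotype, as an SD of log2 CPM, was 1.36 for Egr1, 1.06 for Fos, 0.69 for Fosb, 0.55 for Nr4a1 and 0.54 for Junb. These were above the values of 99.8%, 99.2%, 95.7%, 91.2% and 90.9% of the genes tested, whose median was 0.16. Of the 14866 genes, 31 had a larger spread than Egr1 and 114 a larger one than Fos. Genes with few counts also vary more between hearts from counting error, which bears on Fosb, with 15 to 46 counts, more than on Egr1 or Nr4a1. Atf3, Ier2 and Fosl2 lay at 0.35, 0.34 and 0.33, and Jun and Jund at 0.17 and 0.10. The 2 steady Jun genes were thus close to or below the median gene. A ratio over 2 between the highest and lowest heart in both genotypes, on the log2 CPM scale with a prior count of 2, was found for 5 of the 10 (Fos, Fosb, Junb, Egr1 and Nr4a1) and for 3.79% of all genes tested.

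**Figure D3:**
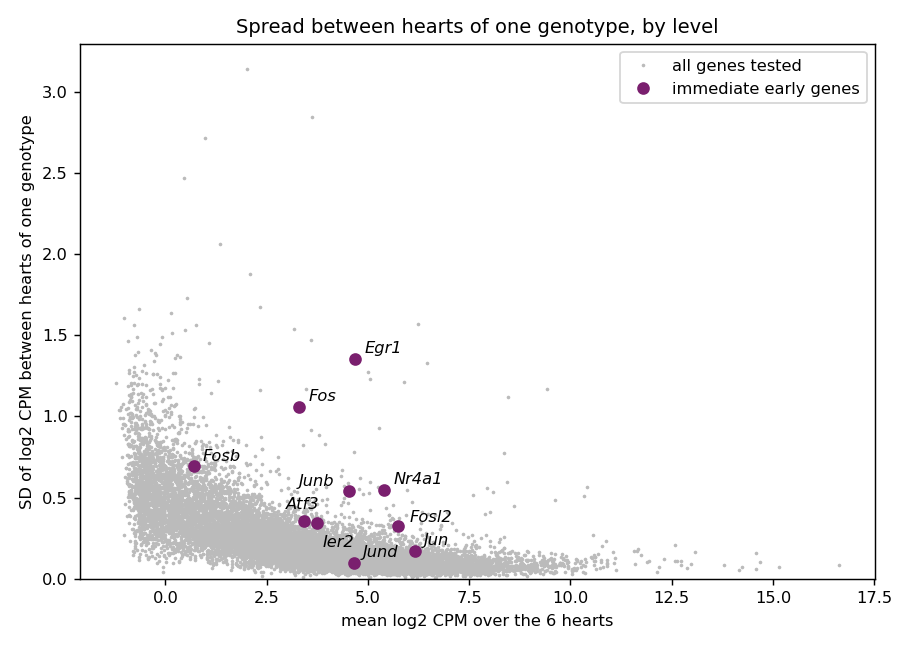
Spread between hearts of 1 genotype (SD of log2 CPM, pooled over both genotypes) against edgeR's average log2 CPM over the 6 hearts. Grey points are the 14866 genes tested and purple points the 10 immediate early genes. Egr1 at 1.36 and Fos at 1.06 lie above the bulk of genes of like level, and Jund at 0.10 lies within it.

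The hearts kept much the same order from gene to gene. Heart 368 was the highest resistant heart for 7 of the 10 genes and heart 370 the lowest for 7. Heart 379 was the highest sensitive heart for 9 of the 10 genes and heart 381 the lowest for 7. All 4 positions held together for 6 genes (Fos, Fosb, Junb, Egr1, Ier2 and Nr4a1), and for 3.73% of all genes tested. Among all genes tested, heart 368 was the highest resistant heart for 30.5% and heart 379 the highest sensitive heart for 32.2%, close to an even share among 3 hearts. Heart 370 was the lowest resistant heart for 35.1% and heart 381 the lowest sensitive heart for 36.6%. Hearts 368 and 379 were both the highest for 7 of the 10 genes and 10.6% of all genes tested. Hearts 370 and 381 were both the lowest for 6 of the 10 and 16.2% of all. Other measures also ordered the hearts. The mitochondrial share was 23.9%, 23.4% and 24.4% in hearts 368, 369 and 370 and 25.0%, 25.3% and 26.0% in hearts 379, 380 and 381, so hearts 370 and 381 were the highest of their genotype. The TMM factor was 1.04, 1.06 and 0.989 in the resistant and 0.985, 0.986 and 0.945 in the sensitive hearts, lowest in the same pair of mice. The part of these shifts in the order of the immediate early genes was not tested. These genes come from the same 6 libraries and respond to shared inputs, so they are not independent measurements of the order.

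Compared per length, as CPM per kilobase of the gene length in the count table, the levels of the 10 genes were ordered Jun, Jund, Nr4a1, Junb, Ier2, Egr1, Fosl2, Atf3, Fos and Fosb. Jun had 22.5 ± 2.72 CPM per kilobase and was above every other gene in all 6 hearts (SD, n = 6). Jund followed with 15.1 ± 1.12, Nr4a1 with 12.0 ± 4.12, Junb with 10.1 ± 3.39 and Ier2 with 8.67 ± 1.83 CPM per kilobase. The ranges of these neighbours overlapped, and each was above the next in 4 or 5 of the 6 hearts. Egr1 (5.70 ± 4.86), Fosl2 (5.56 ± 1.15), Atf3 (4.91 ± 1.21) and Fos (4.13 ± 2.85 CPM per kilobase) could not be set in order beyond their spread, and Egr1 was above Fosl2 in 2 of the 6 hearts. Fosb, with 0.243 ± 0.10 CPM per kilobase, was below the other 9 genes in all 6 hearts. These lengths are those of all annotated exons, so a gene transcribed mainly as a short isoform is understated. Jund may also be understated if reads in its overlap with Gm11175 were not counted, which was not tested.

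The makeup of AP-1 transcripts followed the same hearts, as it is computed from the values of these genes already given and is no further evidence. Of the summed level per kilobase of Fos, Fosb, Fosl1 and Fosl2, Fos made up 57.3%, 30.3% and 20.4% in resistant hearts 368, 369 and 370, and 41.8%, 24.5% and 22.8% in sensitive hearts 379, 380 and 381. Fosl2 was the largest contributor in all hearts but 368, with 45.5% to 58.4% in those 5 and 29.8% in heart 368. In the Jun family, Junb made up 27.7% in heart 368 and 26.2% in heart 379, and 14.7% to 21.1% in the other 4. The summed Jun family exceeded the summed Fos family 3.13- to 4.99-fold in resistant and 3.64- to 6.16-fold in sensitive hearts. The genotypes overlapped in each of these quantities (exact permutation tests, two-sided p from 0.6 to 1).

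Further immediate early genes were taken from a list of 62, of which 59 passed the filter. Of those described here none passed the threshold. Cebpd and Cebpb, which encode C/EBP factors, and Rgs2, a regulator of G protein signalling, had log2 fold changes of 0.63, 0.62 and 0.53 (BH-adjusted p = 0.0665, 0.0828 and 0.125, edgeR). Zfp36l2, an mRNA decay factor, and Plk3, a stress kinase, had -0.39 and -0.74 (BH-adjusted p = 0.152 and 0.155, edgeR). The median of the 59 was 0.01.

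The paralogs of Egr1 and Nr4a1, singled out after their values were seen, differed among themselves in the order of hearts. Egr3 had 70, 39 and 28 counts in resistant and 51, 18 and 11 counts in sensitive hearts, and Egr2 had 29, 15 and 10 counts against 39, 15 and 13. Both were highest in hearts 368 and 379, as Egr1 was. Nr4a3 had 61, 152 and 149 counts in resistant and 246, 170 and 184 counts in sensitive hearts, so that heart 368 was the lowest of the 6. Its log2 fold change was 0.80 (SE = 0.26, BH-adjusted p = 0.161, edgeR), and the genotypes did not overlap. Nr4a2 had 102, 78 and 25 counts against 59, 79 and 30, with heart 370 the lowest of its genotype and heart 381 the lowest of its own. Over the 59 genes, the joint order of hearts seen for Egr1 and Fos held for 11 (18.6%), among them Egr2, Egr3, Myc, Klf10 and Cyr61. Heart 368 was the lowest resistant heart for 26 of the 59 (44.1%) and the highest for 22 (37.3%). Heart 369 was the highest resistant heart for 24 (40.7%), and heart 379 the highest sensitive one for 35 (59.3%). The high place of heart 368 among the 10 genes thus did not extend to most of this list. Per1, also chosen after its values were seen, encodes a clock protein and is induced by CREB. It had 502 counts in heart 368 and 1222 to 1606 in the other 5 (BH-adjusted p = 0.175, edgeR).

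The remaining genes that can join AP-1 or related dimers numbered 14, of which 10 passed the filter. Mafk and Mafg, which encode small Maf proteins that lack a transactivation domain, rose in sensitive hearts. Mafk went from 41.4 ± 1.38 to 55.2 ± 5.46 CPM and Mafg from 46.8 ± 2.79 to 59.6 ± 1.06 CPM (SD, n = 3). Their log2 fold changes were 0.42 and 0.35 (BH-adjusted p = 0.0283 and 0.0333, edgeR), and neither gene overlapped between the genotypes. Of the 6 fits that left out a heart, Mafk was called without 380 alone (adjusted p from 0.0171 to 0.102) and Mafg without 369 alone (from 0.0486 to 0.132). Maf, a large Maf factor, had a log2 fold change of -0.38 (BH-adjusted p = 0.157, edgeR), and Fosl1, which encodes Fra-1, had 42 to 63 counts in the 6 hearts.

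Upstream of these genes, none of the 16 tested regulators of SRF, CREB and MEF2 type passed the threshold, 9 being higher and 7 lower in sensitive hearts. The smallest p were those of Crem, Crtc3 and Creb1, members or partners of the CREB family, with log2 fold changes of 0.34, -0.29 and -0.21 (BH-adjusted p = 0.178, 0.209 and 0.239, edgeR). None of 19 MAP kinase pathway genes passed, with a median log2 fold change of -0.00. Map2k6, an activator of p38, came nearest. It had 130, 144 and 138 counts in resistant and 66, 84 and 32 counts in sensitive hearts, with a log2 fold change of -1.10 (SE = 0.27, BH-adjusted p = 0.0605, edgeR) and no overlap. Rps6ka2, which encodes a ribosomal S6 kinase, had -0.31 (BH-adjusted p = 0.0606, edgeR), and Map2k2, which encodes the ERK activator MEK2, had 0.21 (0.184). Of the phosphatases and other inhibitors that shut the pathway down, 16 were tested and none passed, the nearest being the MAP kinase phosphatases Dusp7, Dusp6 and Dusp8 at log2 fold changes of 0.31, -0.50 and 0.26 (BH-adjusted p = 0.0762, 0.125 and 0.218, edgeR). Dusp1, an immediate early phosphatase named after its values were seen, had 1948, 2062 and 1488 counts in resistant and 2189, 1371 and 1396 counts in sensitive hearts.

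Heat shock genes, which tissue stress also induces, stood in another order over the hearts. As the mean over 11 genes of log2 CPM minus each gene's own mean, they stood at -0.46, -0.24 and 0.17 in hearts 368, 369 and 370, and at -0.04, 0.32 and 0.25 in hearts 379, 380 and 381. The same measure over the 10 immediate early genes was 0.43, 0.09 and -0.43, and 0.57, -0.17 and -0.49. Hearts 368 and 379, the highest of their genotype for the 10 immediate early genes, were thus the lowest of their genotype for the heat shock genes. Hspa1a, the inducible HSP70 gene, singled out after its values were seen, had 26, 49 and 63 counts in resistant and 39, 118 and 89 counts in sensitive hearts. Its reads may be shared with the near-identical Hspa1b. Between the genotypes, Hspa8, which encodes the constitutive HSC70, rose from 1242 ± 169 to 1659 ± 28.0 CPM (SD, n = 3), with a log2 fold change of 0.42 (SE = 0.09, BH-adjusted p = 0.0313, edgeR). That call held in 1 of the 6 fits that left out a heart, the one without 370, and the adjusted p over the 6 ran from 0.0028 to 0.164. Dnaja1, an HSP40 co-chaperone, and Hsp90aa1, the inducible HSP90, had 0.40 and 0.32 (BH-adjusted p = 0.151 and 0.159, edgeR). These and the other heat shock genes did not pass, although all 11 had a positive log2 fold change with a median of 0.29, where 48.4% of all genes tested did.

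**Figure D4:**
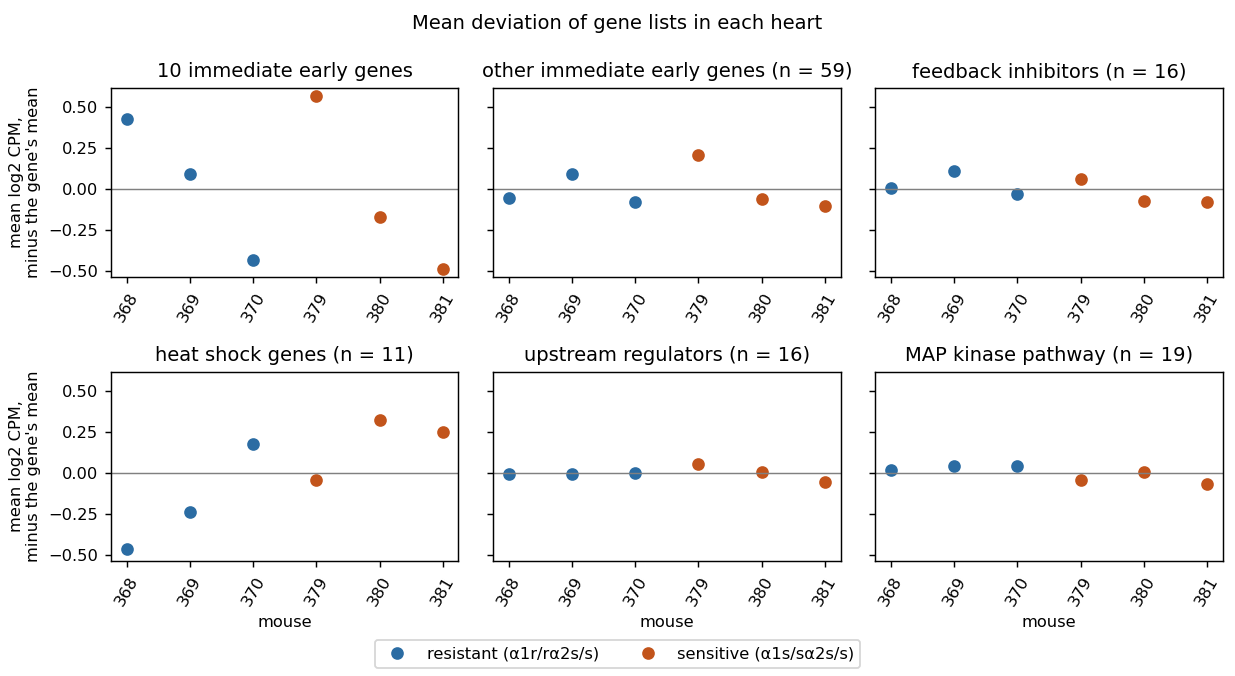
Mean over each gene list of log2 CPM minus the gene's own mean over the 6 hearts (vertical axis), in each heart, by mouse number. The 10 immediate early genes reach 0.57 in heart 379 and -0.49 in heart 381, the heat shock genes are lowest in heart 368 at -0.46, and the upstream regulators and MAP kinase genes stay within 0.07 of 0.

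Markers of several cell types also stood low in hearts 370 and 381. The 10 endothelial markers summed to 1642, 1740 and 1473 CPM in hearts 368, 369 and 370 and to 1749, 1672 and 1483 CPM in hearts 379, 380 and 381. The 10 fibroblast markers summed to 2464, 2544 and 2210 CPM and to 2582, 2440 and 2214 CPM, and the 10 macrophage markers to 475, 617 and 394 CPM and to 431, 413 and 350 CPM. In all 3 lists hearts 370 and 381 were the lowest of their genotype, heart 379 was the highest sensitive heart and heart 369, not 368, the highest resistant one. The 10 cardiomyocyte markers were at their highest in hearts 370 and 381, with 58920, 54556 and 68028 CPM in resistant and 62348, 60558 and 65647 CPM in sensitive hearts. The red cell markers were lowest in the same hearts, with 954, 1272 and 536 CPM and 796, 3187 and 401 CPM.

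Between the genotypes, 1 gene of these cell type lists passed the threshold. Fabp4, a fatty acid binding protein of the endothelial list that adipocytes also make, rose with a log2 fold change of 0.39 (BH-adjusted p = 0.0358, edgeR). It kept the call in 1 of the 6 fits without a heart, that without 369 (adjusted p from 0.00996 to 0.152). All 10 macrophage markers and all 8 smooth muscle and pericyte markers (1396 to 1460 CPM in resistant and 1239 to 1397 CPM in sensitive hearts) had negative log2 fold changes. So did the 3 neutrophil and 4 lymphocyte markers tested, and 5 of 6 atrial markers. The 5 red cell and 4 tested adipocyte markers all had positive ones, where 48.4% of all genes tested did. Cardiomyocyte, fibroblast and endothelial markers went both ways. The 8 neutrophil markers, of which 3 were tested, summed over all 8 to 5.48 to 9.84 CPM in resistant and 1.45 to 6.21 CPM in sensitive hearts. S100a8, a tested one, had 31, 33 and 18 counts in resistant and 9, 5 and 1 counts in sensitive hearts (BH-adjusted p = 0.0606, edgeR). The atrial markers summed to 193 to 279 and 185 to 203 CPM, the 8 lymphocyte markers (4 tested) to 4.97 to 8.41 and 2.48 to 8.63 CPM and the 6 adipocyte markers (4 tested) to 21.5 to 24.2 and 20.6 to 31.1 CPM. The part of cell makeup in the levels of the immediate early genes was not tested.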

How the data were processed

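RNA was extracted from 6 whole hearts and sequenced by a company on an Illumina NovaSeq. The deposited table holds raw counts per gene, made by that company, and the submitters' processing notes name fastp, STAR and featureCounts on mm10. Their settings are not given in the sources used here. All 10 genes have the coordinates of GENCODE M21 (GRCm38), as do 53585 of the 54532 genes listed. The authors' deposited table of their own comparison (means, fold changes and p-values by DESeq2) was not used.

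Counts were fitted in R 4.3.3 with edgeR 4.0.16. TMM factors were used, and filterByExpr kept the 14866 genes tested (at least 10 counts, total of 15). P-values from the quasi-likelihood method were adjusted by Benjamini-Hochberg across those genes, with a threshold of 0.05. The standard error was the log2 fold change divided by the square root of F. Log2 CPM used a prior count of 2. The method was tried on simulated data. The simulated spread was taken from edgeR's own estimates, so that trial cannot show whether the intervals of Egr1 and Fos are too narrow. As alternatives, DESeq2 1.42.0 and limma 3.58.1 (voom) replaced edgeR, RLE or upper-quartile factors replaced TMM, the filter was dropped or raised to 10 counts in each of the hearts, globin and mitochondrial transcripts were removed, a robust prior was used, and each heart was left out in turn. The mice carry no shared replicate numbers, so no pairing was fitted. Genotypes came from the labels. The p-values and intervals rest on the spread between these mice, with each gene's variance drawn toward that of other genes.

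The 10 genes and the other lists were chosen with earlier results of these data known. Genes named were the 10 and, in each list outside cell types, those past the threshold, then those with the smallest p. Up to 3 per list were named (6 for further immediate early genes), with exceptions stated. Fosl1, which enters the Fos family sums, was named outside this rule. In the cell type lists the gene past the threshold and S100a8 were named. Others with a small p, such as Col3a1 (BH-adjusted p = 0.0542, edgeR), were not. The result for 1 further immediate early gene is not reported here. The 5 genes with the highest correlation to the mean z-score of the 10 were also named. They were taken from genes at 1 or more on edgeR's average log2 CPM, which lies close to the log2 of the mean CPM. A single high heart can lift a gene past this limit.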

Additional observations from a re-analysis of the deposited data

How the results depend on the processing

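None of the 10 immediate early genes was called in any of the 14 alternatives, and their smallest adjusted p there was 0.146, for Egr1 without heart 379. Without leaving out a heart, the median log2 fold change of the 10 stayed between 0.03 and 0.04, and each gene kept its direction. Leaving out each heart in turn gave log2 fold changes from -1.16 to 0.42 for Fos, -0.49 to 0.26 for Fosb, -0.0834 to 0.28 for Fosl2, -0.00594 to 0.20 for Jun, -0.25 to 0.39 for Junb, -1.66 to 0.67 for Egr1, -0.22 to 0.13 for Ier2, -0.48 to 0.11 for Nr4a1 and -0.15 to 0.30 for Atf3. The lowest value came without heart 379 for each of these 9 genes. Over all genes, 618 were called without a filter and 400 by DESeq2, where edgeR called 214, and between 80 (without 368) and 158 (without 370) with a heart left out, which also leaves fewer samples. Mafk, Mafg, Hspa8 and Fabp4 each kept the call in the 8 alternatives that used all 6 hearts, and in 1 of the 6 that left out a heart. DESeq2 gave no adjusted p for 1 of the 10 genes. With 3 hearts per genotype, the 95% intervals of the fold were wide for Egr1 (0.348 to 1.97) and Fos (0.384 to 1.54). They may still be too narrow, because edgeR draws each variance toward that of other genes.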

Other observations

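The 5 genes whose log2 CPM over the 6 hearts was most like the mean z-score of the 10 immediate early genes were Pttg1ip, Kap, Lurap1, Bloc1s2 and Atf5, with values of Pearson's r from 0.985 to 0.993 over 6 hearts that share their libraries; r was used here to rank genes and carries no test. Pttg1ip moved little, from 96.5 to 104 CPM. Atf5, which encodes a bZIP factor of the stress response, had 618, 586 and 491 counts in resistant and 671, 516 and 501 counts in sensitive hearts. Kap, a gene known for its high expression in kidney, had 43, 29 and 0 counts in resistant and 397, 3 and 2 counts in sensitive hearts, so that heart 379 held most of its reads (BH-adjusted p = 0.341, edgeR). Kap reached the limit on level for this ranking through heart 379, at 19.7 CPM, with 0 to 2.05 CPM in the rest.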
